A study of Homo sapiens with 9 samples.

Results

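The mRNAs of 37 hnRNP and SR proteins were examined in an eCLIP experiment on MDH2, the malate dehydrogenase of the mitochondrial matrix, in Huh7 cells, a line derived from a human hepatocellular carcinoma. The members were taken from a list of gene names, 24 hnRNP genes and 13 genes of SR proteins and their TRA2 relatives, and all 37 were found among the 35309 identifiers of the deposited table. In eCLIP, UV light links a protein to the RNA it touches, and sequencing of the recovered RNA locates the linked bases. There were 9 libraries, 3 for each of 3 groups: immunoprecipitates of MDH2 (MDH2 IP), immunoprecipitates made with an isotype-matched IgG (IgG IP), and size-matched input (SMI), which is lysate run over the same part of the gel without an IP. All came from Huh7 cells kept in the same growth medium, and no treatment of the cells differed between groups. The IP libraries of both kinds received 14 PCR cycles and the SMI libraries 9, so cycle number and IP cannot be told apart in comparisons with SMI. The labels number the replicates but do not name separate cultures, and p-values therefore measure the spread between these libraries, which may be technical. For every gene, counts were summed over the windows of its exons and over those of its introns.

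hnRNP proteins coat nascent transcripts in the nucleus and often repress splice sites, while SR proteins bind exonic enhancers through their RRM domains and recruit the spliceosome through arginine- and serine-rich tails. Both families are abundant, many members shuttle to the cytoplasm, and several also act in mRNA export, stability and translation. Their own genes hold highly conserved alternative exons and introns whose inclusion in the mRNA brings a premature stop codon, through which many of these proteins limit their own synthesis. Intron counts therefore hold unspliced precursors as well as transcripts in which an intron was kept, and these cannot be told apart here.

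Window counts summed to 1631267 to 2942816 in the IgG IP libraries, which therefore had the largest counting error, to 5899998 to 9482501 in MDH2 IP, and to 8311118 to 9788565 in SMI. A cross-link site enters up to 3 overlapping windows of 50 nt, and these sums exceed the number of sites. Values below are counts per 1000000 of these totals (CPM), scaled by TMM, and are therefore shares of a library. More transcripts in the gel range and more cross-linking per transcript cannot be told apart in any 1 group. Of 11 hepatocyte markers, AFP, ALB and APOB reached between 182 and 3754 CPM in all 9 libraries. APOA1, APOA2, FGB, HNF4A, SERPINA1, TF and TTR lay between 9.29 and 802 CPM. APOH was the lowest at 2.52 to 11.7 CPM, which overlapped the highest markers of other cells. Those markers were low. PTPRC and CD3E, of blood cells, CDH5 and VWF, of endothelium, and COL1A1, of fibroblasts, stayed below 1 CPM, the endothelial PECAM1 ranged from 0 to 5.32 CPM and the fibroblast PDGFRB from 1.43 to 5.09 CPM.

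The 37 mRNAs together took 0.819%, 0.769% and 0.824% of all counts in MDH2 IP, 0.621%, 0.590% and 0.659% in SMI, and 0.609%, 0.588% and 0.592% in IgG IP. Each MDH2 IP library lay above every library of both controls, which themselves overlapped. Of exon counts alone they took 1.21%, 1.04% and 1.22% in MDH2 IP, 0.989%, 0.849% and 1.06% in SMI, and 1.15%, 1.09% and 1.27% in IgG IP, so that MDH2 IP overlapped both controls. Exons held 79.2%, 80.8% and 81.3% of the members' counts in MDH2 IP, 69.9%, 71.7% and 73.3% in SMI and 72.8%, 64.8% and 66.8% in IgG IP. The exon share of the members was higher in all MDH2 IP libraries than in both controls, as it was for other mRNAs, where it ranged from 29.3% to 36.4% in IgG IP, from 39.7% to 45.1% in SMI and from 52.6% to 58.7% in MDH2 IP. With 3 libraries against 3, an exact two-sided permutation test cannot give less than p = 0.1, which the separations in the share of all counts and in the members' exon share reached.

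Enriched windows lay in annotated exons, which can include introns kept in some transcripts. Shown first are 6 that could be placed on the genome and lay wholly or mostly in coding sequence. They are stretches of these mRNAs at which cross-link sites were more frequent in MDH2 IP than in SMI. The central 30 bases of each window are printed in the direction of the transcript (GRCh38, lower case, no base marked). Windows were placed by matching the number of windows of an exon to its length in GENCODE v44, so that positions hold to within the step of 20 nt.
HNRNPA2B1, exon 6, chr7:26195842-26195871, minus strand: aatgggtatggaggaggacctggaggtcag
HNRNPH1, exon 6, chr5:179618154-179618183, minus strand: ctggctttgagaggatgaggcgtggtgctt
HNRNPH3, exon 5, chr10:68341804-68341833, plus strand: acaattacagtggaggatatggtactcctg
HNRNPL, exon 10, chr19:38840266-38840295, minus strand: tgggtccaccagtggggggtcaccgtcggg
HNRNPM, exon 5, chr19:8463603-8463632, plus strand: ttcaagatggaagagagcatgaaaaaagct
SRSF5, exon 3, chr14:69768613-69768642, plus strand: gatccaagggatgcagatgatgctgtgtat
The printed bases were all coding except in HNRNPA2B1, where 83.3% were coding and the rest lay beyond the protein-coding exon of the annotation. HNRNPA2B1 is a splicing and transport factor with a glycine-rich tail. Its window held 69, 48 and 37 counts in MDH2 IP, 12, 15 and 12 in SMI and 17, 3 and 5 in IgG IP. All MDH2 IP libraries exceeded all SMI libraries (log2 fold change 1.78, SE 0.31, adjusted p = 0.00124), and IgG IP over SMI, with the same SMI libraries, was at 1.97. The HNRNPM window, in the mRNA of a GU-binding splicing factor, held 26, 21 and 17 counts in MDH2 IP, 6, 4 and 9 in SMI and 5, 1 and 0 in IgG IP. It separated MDH2 IP from SMI (log2 fold change 1.56, SE 0.39, adjusted p = 0.0299). The SRSF5 window held 31, 18 and 12 counts in MDH2 IP, 7, 6 and 7 in SMI and 1, 7 and 2 in IgG IP. Here, too, no MDH2 IP count fell among the SMI counts (log2 fold change 1.39, SE 0.39, adjusted p = 0.0295), but the difference from IgG IP was -0.04 on the log2 scale. The windows of HNRNPH3, HNRNPL, HNRNPM and SRSF5 reached 10 counts, the minimum for a test, in no SMI library and passed through MDH2 IP alone, where they are high, so that their difference from SMI is a description. The windows of HNRNPH1, HNRNPH3 and HNRNPL had log2 fold changes of 1.44, 1.65 and 2.05 over SMI, and 0.60, -1.33 and 0.01 over IgG IP.

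Relative to SMI, exon counts of these mRNAs were higher in MDH2 IP for 13 of 37 members and lower for 0. Over all genes, 20.6% of exon sums were called higher and 6.79% lower by edgeR's quasi-likelihood test at an adjusted p of at most 0.05, with Benjamini-Hochberg adjustment over all exon and intron sums. For the lower direction, 1 member, PCBP2, had an unadjusted p under 0.05, and DESeq2 called 0. The median log2 fold change was 0.35 over the 37 members, 29 of them above 0, and 0.27 over all 13923 exon sums tested. This general shift of exons depends on the scaling. When exon and intron sums were normalized apart, the medians were 0.08 for the members and 0.01 for all genes, 6 members stayed called higher, and PCBP2, SRSF6 and TRA2B were called lower. With the replicate number as a block, which pairs MDH2 IP with SMI, 22 members were higher, the 13 among them, and PCBP2, SRSF3, SRSF6 and TRA2B were lower. The share of all exon sums called was not computed under these settings, so nothing particular to the members is read from these counts.

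**Figure D1:**
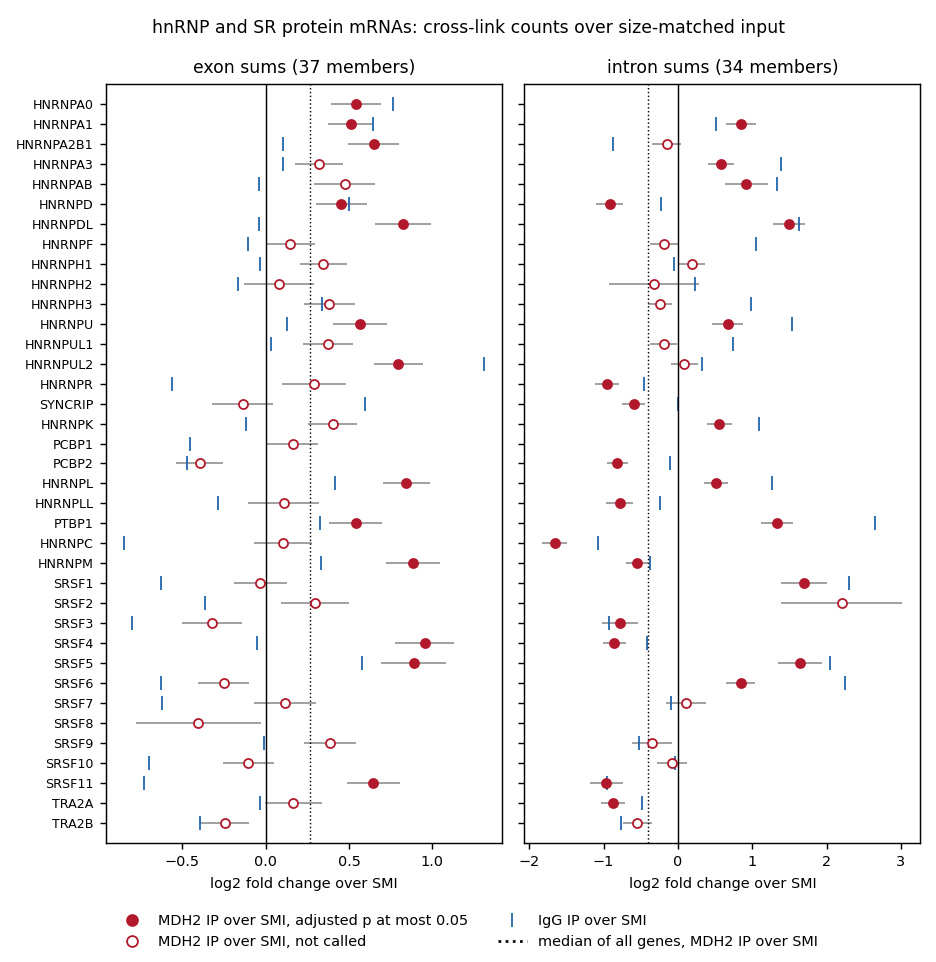
Log2 fold changes over SMI of exon sums (left, 37 mRNAs) and intron sums (right, 34 with tested introns). Circles are MDH2 IP over SMI with the SE of the fit as bars, filled at an adjusted p of at most 0.05, blue ticks are IgG IP over SMI (no tick for the exons of SRSF8, with 3 or fewer counts in each IgG IP library, nor for the introns of SRSF2, which were not tested there), and the dotted line is the median of all genes. Exon calls are all to the right, and intron calls go in both directions, 11 each way.

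Among hnRNP mRNAs, 10 of 24 were called higher in exons, and 5 of these belonged to the 7 A/B-type proteins, RRM proteins of the core hnRNP particle and their relatives. HNRNPDL, a close relative of the AU-rich-element binder HNRNPD, had exon values of 129, 119.9 and 144 CPM in MDH2 IP, 60.2, 73.6 and 85.9 CPM in SMI and 79.8, 61.2 and 70.0 CPM in IgG IP. The MDH2 IP libraries lay above all 6 control libraries (log2 fold change 0.82, SE 0.17, adjusted p = 0.00475 over SMI). HNRNPA2B1, which takes part in splicing and in RNA transport, had 693, 586 and 673 CPM in MDH2 IP, 417, 363 and 457 CPM in SMI and 459.6, 378 and 478 CPM in IgG IP. Here as well every MDH2 IP value was above every control value (log2 fold change 0.65, SE 0.15, adjusted p = 0.00919). The other called A/B-type mRNAs were HNRNPA0 at 0.54, HNRNPA1 at 0.51 and HNRNPD at 0.45 on the log2 scale. HNRNPA3 at 0.32 and HNRNPAB at 0.47 did not pass the test.

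HNRNPM and HNRNPL had the highest exon fold changes among the hnRNP mRNAs. HNRNPM exons held 135, 129.7 and 155 CPM in MDH2 IP, 71.2, 66.6 and 87.8 CPM in SMI and 100.5, 66.8 and 114 CPM in IgG IP. All MDH2 IP libraries exceeded both controls (log2 fold change 0.88, SE 0.16, adjusted p = 0.00278 over SMI). HNRNPL, which binds CA repeats and represses or activates exons next to them, held 270.5, 257 and 293 CPM in MDH2 IP, 152, 138 and 163 CPM in SMI and 245, 166 and 186 CPM in IgG IP. MDH2 IP lay above SMI without overlap (log2 fold change 0.84, SE 0.14, adjusted p = 0.00194), while 1 IgG IP library came close to the lowest MDH2 IP value. PTBP1, the polypyrimidine tract repressor of the same L/PTB type, was called higher at 0.54, and HNRNPLL was at 0.11 without a call.

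The U type, large proteins with a SAP domain that associate with chromatin, had 2 of 3 members called, HNRNPU at 0.56 and HNRNPUL2. HNRNPUL2 exons held 171, 201 and 168 CPM in MDH2 IP, 103, 103 and 102 CPM in SMI and 248, 251 and 262 CPM in IgG IP. Its order was SMI below MDH2 IP below IgG IP with no overlap (log2 fold change 0.80, SE 0.15, adjusted p = 0.0029 for MDH2 IP over SMI). IgG IP over SMI, with the same SMI libraries, gave 1.31, and MDH2 IP over IgG IP did not pass the test at -0.38 (adjusted p = 0.152). The H/F type, which binds G tracts, had 0 of 4 exon sums called, with 4 of 4 above 0 and a median of 0.25. HNRNPR and SYNCRIP, of the R type, and the KH-domain proteins HNRNPK, PCBP1 and PCBP2, which bind C-rich RNA, had none called either, and PCBP2 had the lowest value of these 5, -0.40 (adjusted p = 0.0517). With the replicate block HNRNPH1, HNRNPH3, HNRNPR and HNRNPK were called higher and PCBP2 lower.

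Exons of SR protein mRNAs were called higher for 3 of 11 SR members and for neither TRA2A nor TRA2B, which bind GAA-rich enhancers. SRSF4, an SR protein with a long arginine- and serine-rich tail, had the largest exon difference of all members. Its exons held 59.8, 65.3 and 47.8 CPM in MDH2 IP, 29.1, 32.0 and 27.8 CPM in SMI and 34.0, 35.9 and 13.6 CPM in IgG IP. The MDH2 IP libraries were 1.94-fold above SMI in the fit and above all controls (log2 fold change 0.95, SE 0.18, adjusted p = 0.00315). SRSF5, a related SR protein, held 131, 150.1 and 103 CPM in MDH2 IP, 63.5, 82.6 and 60.1 CPM in SMI and 90.9, 123 and 90.7 CPM in IgG IP. It was clear of SMI (log2 fold change 0.89, SE 0.20, adjusted p = 0.00667), and the IgG IP values overlapped those of MDH2 IP. SRSF11, an RS-domain protein of the spliceosome, held 205, 217 and 166 CPM in MDH2 IP, 113, 132 and 128 CPM in SMI and 68.4, 89.6 and 65.0 CPM in IgG IP. MDH2 IP was the highest and IgG IP the lowest group with no overlap (log2 fold change 0.65, SE 0.16, adjusted p = 0.0118 over SMI). The remaining 8 SR members had log2 fold changes between -0.40 (SRSF8) and 0.38 (SRSF9), and TRA2A and TRA2B were at 0.17 and -0.24. Of the 13 exon calls, 7 held whichever of the 6 libraries was left out (HNRNPA2B1, HNRNPDL, HNRNPL, HNRNPM, HNRNPUL2, SRSF4 and SRSF5), and without SMI replicate 1 the count fell to 7.

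**Figure D2:**
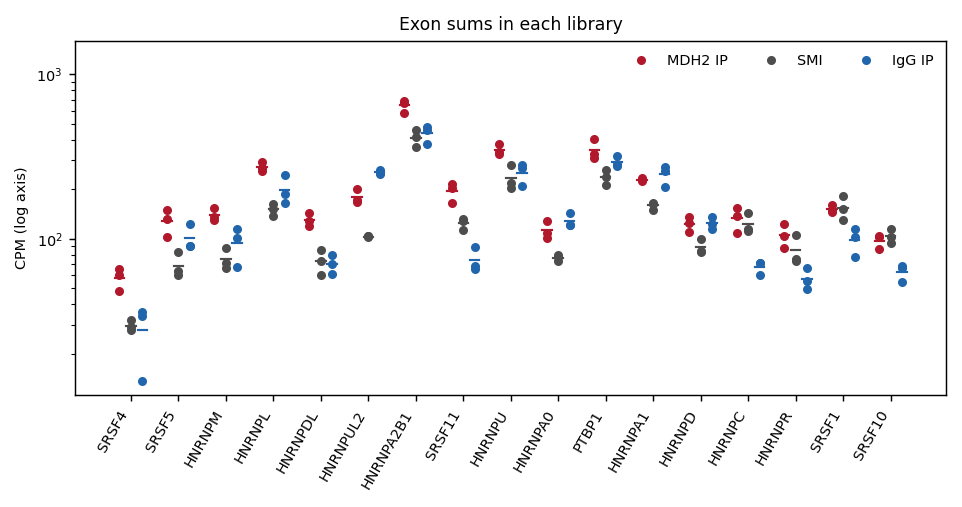
Exon sums of the 17 mRNAs called in MDH2 IP over SMI (the 13 from SRSF4 to HNRNPD) or only over IgG IP (HNRNPC, HNRNPR, SRSF1 and SRSF10), in CPM on a log axis. Points are libraries, 3 a group, and bars are group means. MDH2 IP lies above SMI for the first 13, and for the last 4 it overlaps SMI and lies above IgG IP.

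The comparison with IgG IP asks which counts exceed those that beads with an unrelated antibody bring down. Over IgG IP, exons of 8 of 37 members were higher, against 16.6% of all exon sums, and 0 were lower, against 1.3%. DESeq2 also called 0 lower, and 1 member had an unadjusted p under 0.05. The members' median was 0.53 and that of all genes 0.58. Of these 8, HNRNPA2B1, HNRNPDL, SRSF4 and SRSF11 were also called over SMI, in a comparison with the same MDH2 IP libraries. SRSF11, with the values given above, had the largest difference (log2 fold change 1.51, SE 0.21, adjusted p = 0.00151). SRSF4 followed (log2 fold change 1.13, SE 0.32, adjusted p = 0.0292), with 1 IgG IP library well below the other IgG IP libraries. HNRNPDL was called with a smaller SE (log2 fold change 0.99, SE 0.20, adjusted p = 0.00786).

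HNRNPC, which binds uridine tracts and packages nascent transcripts, showed a different order. Its exons held 138, 108 and 154 CPM in MDH2 IP, 114, 111 and 143 CPM in SMI and 70.9, 60.5 and 71.5 CPM in IgG IP. MDH2 IP overlapped SMI (log2 fold change 0.10) and both lay above IgG IP (log2 fold change 1.08, SE 0.21, adjusted p = 0.00631 for MDH2 IP over IgG IP). HNRNPR, SRSF1 and SRSF10 had the same order, with log2 fold changes over IgG IP of 0.98, 0.73 and 0.73. SRSF1 is the best studied SR protein, and SRSF10 turns into a splicing repressor when dephosphorylated. Of the 13 SR and TRA2 members, 4 were called higher over IgG IP. When IgG IP was compared with SMI, exons of 6 members were lower (HNRNPC, SRSF3, SRSF6, SRSF8, SRSF10 and SRSF11), against 10.6% of all exon sums. SRSF8, with 0, 0 and 3 counts in IgG IP, passed the count minimum through SMI alone, so it could only be lower and nothing is read from its call. Higher exons in IgG IP over SMI were called for 3 members (HNRNPA0, HNRNPA1 and HNRNPUL2), against 7.51%. With exon and intron sums normalized apart, SRSF11 was the only one of the 8 calls over IgG IP to stay, and HNRNPUL2 and SYNCRIP were called lower. Of the 8, only HNRNPC, HNRNPDL, HNRNPR and SRSF11 were called whichever library was left out, and 4 were called without MDH2 IP replicate 1.

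Intron counts moved in both directions. Of the 34 members with tested introns, 11 were higher in MDH2 IP than in SMI, against 9.35% of all intron sums, and 11 were lower, against 30.7%. HNRNPA0, PCBP1 and SRSF8 have no intron windows in the table. The median was -0.17 over the members, 15 of them above 0, and -0.40 over all 14050 intron sums. When intron sums were normalized apart, these medians were 0.22 and -0.02, all 11 higher calls stayed, and 6 of the lower calls stayed (HNRNPC, HNRNPD, HNRNPR, PCBP2, SRSF4 and TRA2A). Without 1 library the count of higher introns fell to 6 in 3 cases, MDH2 IP replicate 1, SMI replicate 1 and SMI replicate 2.

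The largest higher introns belonged to SR protein mRNAs and to HNRNPDL and PTBP1. SRSF1 introns held 9.25, 8.78 and 11.4 CPM in MDH2 IP, 4.10, 2.58 and 2.35 CPM in SMI and 8.87, 18.9 and 17.1 CPM in IgG IP. SMI was lowest in every library (log2 fold change 1.69, SE 0.31, adjusted p = 0.00276 for MDH2 IP over SMI), and MDH2 IP and IgG IP overlapped. SRSF5 introns held 9.25, 8.51 and 9.10 CPM in MDH2 IP, 2.53, 3.76 and 2.25 CPM in SMI and 7.39, 17.0 and 11.4 CPM in IgG IP. They were above SMI without overlap (log2 fold change 1.64, SE 0.30, adjusted p = 0.00276) and within the range of IgG IP. These are low levels: each SRSF1 and SRSF5 intron sum in SMI rested on fewer counts than any other called intron.

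HNRNPDL introns held 23.6, 18.6 and 25.5 CPM in MDH2 IP, 7.35, 7.30 and 9.09 CPM in SMI and 21.4, 20.8 and 31.4 CPM in IgG IP. They exceeded SMI (log2 fold change 1.50, SE 0.22, adjusted p = 0.00109) and did not differ from IgG IP beyond the spread (log2 fold change -0.003). PTBP1 introns held 124, 102 and 157 CPM in MDH2 IP, 56.4, 37.3 and 56.8 CPM in SMI and 234, 315 and 391 CPM in IgG IP. The order was SMI, MDH2 IP, IgG IP with no overlap between groups (log2 fold change 1.33, SE 0.21, adjusted p = 0.00163 over SMI). In IgG IP over SMI the PTBP1 value was 2.65 (adjusted p = 2.04e-05), and in MDH2 IP over IgG IP it was -1.19 (adjusted p = 0.00678).

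IgG IP showed higher introns than SMI for 13 of 33 members, against 20.2% of all intron sums, and lower ones for 4, against 5.42%. This comparison shares the SMI libraries with that of MDH2 IP, and the values of both are therefore given side by side. HNRNPA3 introns were at 0.58 in MDH2 IP and 1.39 in IgG IP over SMI, HNRNPAB at 0.92 and 1.33, HNRNPU at 0.67 and 1.53, HNRNPL at 0.51 and 1.27, and HNRNPK at 0.56 and 1.09 on the log2 scale. SRSF1 was at 1.69 and 2.30, SRSF5 at 1.64 and 2.05, and SRSF6 at 0.84 and 2.25. HNRNPA1 introns, at 0.85 and 0.51, were called in MDH2 IP and not in IgG IP, and the difference between MDH2 IP and IgG IP did not pass the test (0.47, adjusted p = 0.167). Over IgG IP itself, 1 member had higher introns in MDH2 IP, against 0.467% of all intron sums, and 6 had lower ones, against 21.1%. The higher one was HNRNPA2B1, with 57.7, 45.0 and 47.8 CPM in MDH2 IP, 64.5, 42.6 and 59.3 CPM in SMI and 32.1, 22.7 and 35.0 CPM in IgG IP. MDH2 IP and SMI overlapped and lay above IgG IP (log2 fold change 0.85, SE 0.24, adjusted p = 0.0309), and the call was lost without MDH2 IP replicate 1 or IgG IP replicate 2.

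The lower ones over IgG IP began with SRSF6, an SR protein, whose introns held 52.9, 49.6 and 47.2 CPM in MDH2 IP, 29.9, 32.7 and 20.4 CPM in SMI and 87.9, 181 and 125 CPM in IgG IP. MDH2 IP lay between SMI and IgG IP without overlap (log2 fold change -1.27, SE 0.25, adjusted p = 0.00722 over IgG IP). HNRNPF introns held 36.3, 32.7 and 40.9 CPM in MDH2 IP, 46.9, 32.7 and 44.3 CPM in SMI and 65.8, 103 and 87.9 CPM in IgG IP. MDH2 IP overlapped SMI, and IgG IP was above both (log2 fold change -1.11, SE 0.22, adjusted p = 0.00771 for MDH2 IP over IgG IP). HNRNPH3, of the same G-tract-binding type, held 34.9, 37.9 and 31.0 CPM in MDH2 IP, 42.9, 40.7 and 38.4 CPM in SMI and 69.1, 96.5 and 73.6 CPM in IgG IP. IgG IP was again the highest group (log2 fold change -1.09, SE 0.22, adjusted p = 0.00789 for MDH2 IP over IgG IP). MDH2 IP was the lowest, below SMI without overlap but without passing the test (log2 fold change -0.24, adjusted p = 0.288 over SMI). PTBP1, HNRNPUL1 at -0.80 and PCBP2 at -0.58 made up the 6. With intron sums normalized apart, none of these 6 was called and HNRNPA1, HNRNPA2B1 and HNRNPH1 were called higher.

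HNRNPC had the largest lower intron value. Its introns held 103, 74.6 and 86.8 CPM in MDH2 IP, 300.4, 263 and 266 CPM in SMI and 129, 138 and 123 CPM in IgG IP. Each MDH2 IP library had less than any SMI library, and IgG IP lay between them (log2 fold change -1.66, SE 0.16, adjusted p = 0.000224 over SMI). SRSF11 introns held 97.3, 98.2 and 60.2 CPM in MDH2 IP, 164, 198 and 135 CPM in SMI and 78.7, 105 and 71.5 CPM in IgG IP. MDH2 IP was below SMI without overlap (log2 fold change -0.96, SE 0.22, adjusted p = 0.00858) and overlapped IgG IP. The other 9 lower introns were those of HNRNPR at -0.96, HNRNPD at -0.92, TRA2A at -0.87, SRSF4 at -0.85, PCBP2 at -0.82, HNRNPLL at -0.78, SRSF3 at -0.78, SYNCRIP at -0.59 and HNRNPM at -0.55 on the log2 scale. The last 2 were close to the median of all introns. The other higher introns were those of HNRNPAB at 0.92, HNRNPA1 at 0.85, SRSF6 at 0.84, HNRNPU at 0.67, HNRNPA3 at 0.58, HNRNPK at 0.56 and HNRNPL at 0.51.

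**Figure D3:**
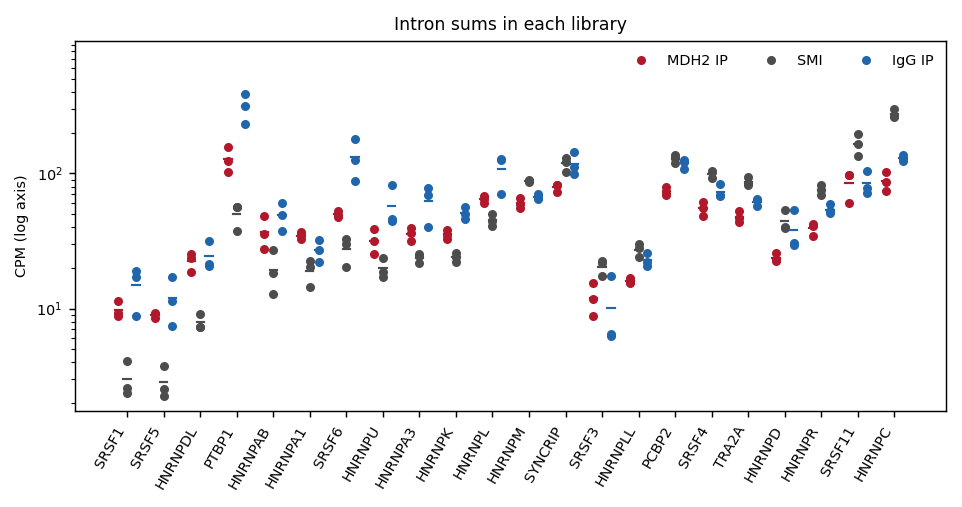
Intron sums of the 22 mRNAs called in MDH2 IP over SMI, in CPM on a log axis, ordered from the highest to the lowest log2 fold change. Points are libraries, 3 a group, and bars are group means. For the 11 on the left SMI has the lowest mean, and for the 11 on the right the highest.

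Single introns carried much of these sums. In PTBP1, intron 3 held 70.5, 54.4 and 82.1 CPM in MDH2 IP, 29.9, 22.4 and 27.7 CPM in SMI and 123, 179.7 and 216 CPM in IgG IP. That is 53.1% of the intron counts of PTBP1 in SMI, 54.5% in MDH2 IP and 54.8% in IgG IP. PTBP1 intron 1 (chr19:797506-798427) held 14.3, 17.7 and 28.1 CPM in MDH2 IP, 4.58, 3.22 and 7.97 CPM in SMI and 39.2, 44.8 and 65.0 CPM in IgG IP. In SRSF6, intron 2 held 40.5, 36.5 and 39.2 CPM in MDH2 IP, 21.3, 22.9 and 11.2 CPM in SMI and 74.3, 161 and 114 CPM in IgG IP. Its share of the SRSF6 intron counts was 66.4% in SMI, 77.3% in MDH2 IP and 88.0% in IgG IP. In HNRNPU, the scaffold protein of the nuclear matrix, intron 1 held 12.8, 10.5 and 17.4 CPM in MDH2 IP, 3.13, 0.536 and 2.76 CPM in SMI and 21.8, 28.4 and 65.7 CPM in IgG IP. The share of this intron went from 10.6% of the intron counts in SMI to 42.3% in MDH2 IP and 63.6% in IgG IP. SRSF1 intron 1 (chr17:58006528-58006906) held 67.9% of the SRSF1 intron counts in SMI, 86.6% in MDH2 IP and 92.3% in IgG IP.

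Among lower introns, HNRNPC intron 4 (chr14:21236461-21254546) held 32.2, 30.6 and 28.8 CPM in MDH2 IP, 117, 108 and 106 CPM in SMI and 55.0, 47.3 and 32.1 CPM in IgG IP. SRSF11 intron 3 (chr1:70222799-70228421) held 45.3, 52.1 and 24.4 CPM in MDH2 IP, 86.2, 105 and 63.2 CPM in SMI and 25.9, 55.5 and 38.6 CPM in IgG IP. Both had their highest level in SMI. HNRNPH3 intron 1 (chr10:68332236-68336805) held 27.0, 29.5 and 26.8 CPM in MDH2 IP, 38.2, 35.6 and 34.2 CPM in SMI and 62.1, 88.9 and 70.0 CPM in IgG IP, and HNRNPUL1 intron 4 (chr19:41265344-41268077) held 18.8, 12.1 and 12.7 CPM in MDH2 IP, 11.1, 12.4 and 10.0 CPM in SMI and 45.1, 73.8 and 67.2 CPM in IgG IP. In both IgG IP was highest, and MDH2 IP was below SMI in the first and overlapped it in the second. Over the 32 members with more than 1 intron, intron 1 held 14.1%, 15.2% and 16.1% of intron counts in MDH2 IP, 10.9%, 11.5% and 12.4% in SMI and 18.6%, 19.7% and 22.1% in IgG IP. The 3 groups did not overlap. Of the 22 introns 1 with a mean of at least 1 CPM in SMI, the mean was above SMI in 14 in MDH2 IP and in 17 in IgG IP. Shares and counts of intron 1 were not computed for other genes. Whether this order is particular to the members was therefore not tested.

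Members with higher introns had less intron sequence than members with lower ones. The total intron length of the gene in GENCODE v44 had a median of 4.51 kb for the 11 members with higher introns, 25.8 kb for the 11 with lower ones and 9.97 kb for the 12 without a call. The intron windows were numbered on an older release, and these lengths do not always match them. By the span of the listed intron windows the medians were 5.0, 30.8 and 6.24 kb. Of the 12 members with up to 5 kb of intron, 7 were higher and 1, SRSF3, was lower, where 21.9% of all such genes were higher and 3.91% lower. Of the 12 members with between 20 and 50 kb, 1, SRSF5, was higher and 8 were lower, where 6.97% of all such genes were higher and 31.2% lower. The SRSF5 length is nearly all in intron 1, which held only 3.15% of its intron counts in MDH2 IP. Introns of all genes followed the same gradient: the median log2 fold change was 0.53 up to 5 kb, -0.04 between 5 and 20 kb, -0.47 between 20 and 50 kb and -0.70 above 50 kb. In IgG IP over SMI these medians were 0.92, 0.36, -0.06 and -0.04. The members' medians in the first 3 ranges were 0.76, 0.09 and -0.69 for MDH2 IP over SMI, and HNRNPC was the only member above 50 kb.

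**Figure D4:**
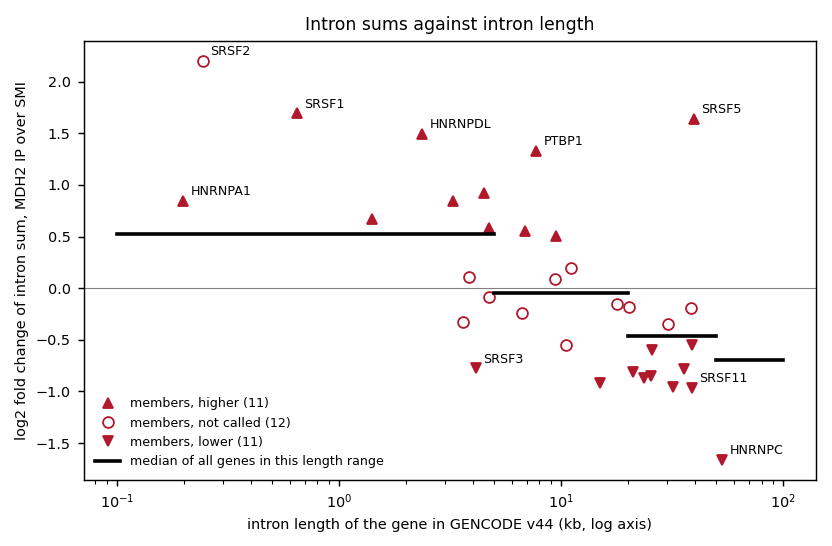
Log2 fold change of intron sums, MDH2 IP over SMI, for the 34 mRNAs with tested introns. The horizontal axis is total intron length of the gene in GENCODE v44 (kb, log axis). Upward triangles were called higher, downward triangles lower, and open circles were not called. Black lines are medians of all genes with up to 5, 5 to 20, 20 to 50 and over 50 kb of intron, drawn to the ends of the ranges or of the plot. With up to 5 kb of intron, 7 of 12 members were called higher, and with 20 to 50 kb 8 of 12 were called lower, against 21.9% and 31.2% of all genes in these ranges.

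Exon and intron changes of a gene were compared within libraries by an interaction term. The exon change exceeded the intron change for 13 of 34 members, against 38.8% of all genes, and fell short of it for 6, against 2.41%. The median difference was 0.37 over the members and 0.59 over all genes. The 6 with the greater intron change were HNRNPDL, PTBP1, SRSF1, SRSF2, SRSF5 and SRSF6. The introns of SRSF2 passed the count minimum through MDH2 IP alone, so its place among the 6 supports nothing. DESeq2 called the other 5. With 1 library left out the count of 6 fell to between 3 and 5, with PTBP1, SRSF1 and SRSF6 left without MDH2 IP replicate 3. SRSF4 had the largest difference, 1.80 (SE 0.22, adjusted p = 1.87e-08) on the log2 scale, with exons called higher and introns called lower. HNRNPM, at 1.44 (SE 0.22, adjusted p = 8.5e-07), SRSF11, at 1.62 (SE 0.22, adjusted p = 1.29e-07), and HNRNPD, at 1.36, were the others with that combination of calls. HNRNPC was at 1.77 (SE 0.22, adjusted p = 2.36e-08), with exons level with SMI and introns below it.

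In the other direction, SRSF1 had a difference of -1.73 (SE 0.28, adjusted p = 3.17e-06). Its exons held 146, 149 and 161 CPM in MDH2 IP, 151, 129.8 and 181 CPM in SMI and 102, 115 and 77.9 CPM in IgG IP, with MDH2 IP in the range of SMI, and only its introns were higher. SRSF2, which activates many exons, had a difference of -1.79 (SE 0.50, adjusted p = 0.00331). Its introns held 0.934, 1.33 and 4.63 CPM in MDH2 IP, 0.241, 0.215 and 0.919 CPM in SMI and 0.739, 3.15 and 5.72 CPM in IgG IP. Before scaling, the MDH2 IP libraries had 10, 10 and 30 intron counts and the SMI libraries 2, 2 and 9, so the sum passed the count minimum through MDH2 IP alone and the difference supports nothing. The intron sum itself was not called (adjusted p = 0.0607), nor was the difference by DESeq2 (adjusted p = 0.0762). SRSF6 was at -1.12, PTBP1 at -0.80, SRSF5 at -0.77 and HNRNPDL at -0.66. In the last 3 both regions were higher over SMI and the introns more so. Exons and introns were both called higher for 6 of 34 members, against 5.83% of all genes with both tested (HNRNPA1, HNRNPDL, HNRNPL, HNRNPU, PTBP1 and SRSF5), and 5 more (HNRNPA3, HNRNPAB, HNRNPK, SRSF1 and SRSF6) had higher introns without an exon call. With 1 library left out, between 2 and 6 members had both calls: 2, HNRNPDL and SRSF5, without SMI replicate 1, 3 without SMI replicate 2, and 4 without MDH2 IP replicate 1, MDH2 IP replicate 3 or SMI replicate 3. With exon and intron sums normalized apart 3 had both (HNRNPDL, HNRNPL and SRSF5), and with the replicate block 10.

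At the level of single windows, 67 of 1469 tested windows of the members were enriched in MDH2 IP over SMI, which required an adjusted one-sided p of at most 0.05 and at least a doubling in the fit (1 on the log2 scale). The share among all windows tested was 4.07%. They formed 36 regions on 20 members, each of them in an annotated exon, which can include introns kept in some transcripts. Of the exons that could be placed, protein-coding exons covered from 16.8% (HNRNPH1 exon 6) to 100% (HNRNPD exon 3). In HNRNPL exon 10 they covered 20.8%, and 48% of its peak window at chr19:38840536-38840585. Of the 36 peak windows, 23 reached 10 counts in no SMI library and were tested through MDH2 IP alone, among them those of HNRNPA3, HNRNPL, HNRNPAB, SRSF4, HNRNPDL, SRSF5 and HNRNPA0 described next, and for these a higher count in MDH2 IP is set by the filter and is given as a description. HNRNPA2B1 had 14 windows in 5 regions, HNRNPL 9 in 5, HNRNPU 8 in 3 and HNRNPA1 6. With the replicate block the count was 129, against 7.44% of all windows tested. Without MDH2 IP replicate 1 it was 6 of 1135, against 0.723% of all windows tested. Of the 67, 30 reached 10 counts in no SMI library and cannot be tested once an MDH2 IP library is left out. Their loss in that case is set by the filter. They stay in the test without SMI replicate 1, where 14 of 1386 were enriched, against 1.7% of all windows tested. The number of windows thus moved with single libraries, in part through the filter. Over IgG IP, 0 of 954 windows tested passed, against 0.148% of all windows. Of the 954, 8.28% had an unadjusted one-sided p under 0.05. This share was not computed for all windows, and the windows overlap, so nothing is read from it. The 36 peak windows had a median log2 fold change of 1.75 over SMI and 0.05 over IgG IP, 21 of them above 0 in the latter. Each peak was picked as the enriched window of its region with the highest value over SMI. The median over SMI is set by this choice, and the values over IgG IP share the same MDH2 IP counts, so both are a description. In IgG IP over SMI, 55 of 732 windows of the members were enriched, against 6.18% of all windows.

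The highest peak lay in exon 6 of HNRNPA3, of the A/B type, where the window held 22, 25 and 18 counts in MDH2 IP, 4, 0 and 4 in SMI and 8, 5 and 5 in IgG IP. MDH2 IP exceeded SMI in every library (log2 fold change 2.80, SE 0.53, adjusted p = 0.0027), but was -0.74 on the log2 scale against IgG IP. HNRNPL exon 3 had 23, 14 and 26 counts in MDH2 IP, 4, 3 and 3 in SMI and 3, 3 and 4 in IgG IP. The groups MDH2 IP and SMI did not overlap (log2 fold change 2.46, SE 0.47, adjusted p = 0.00493), and the value over IgG IP was 0.06. HNRNPAB, which binds AU-rich RNA, had 12, 11 and 14 counts in MDH2 IP, 2, 2 and 2 in SMI and 5, 1 and 2 in IgG IP in exon 1. The SMI counts of this window were all 2 (log2 fold change 2.41, SE 0.59, adjusted p = 0.0362).

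HNRNPA2B1 exon 1 had 48, 38 and 27 counts in MDH2 IP, 10, 7 and 5 in SMI and 2, 3 and 4 in IgG IP. It was the deepest of these peaks (log2 fold change 2.15, SE 0.38, adjusted p = 0.00116) and lay at 0.99 over IgG IP. SRSF4 had its peak in exon 10, the last, where it held 19, 12 and 10 counts in MDH2 IP, 3, 5 and 0 in SMI and 1, 2 and 1 in IgG IP. It was well above SMI (log2 fold change 2.13, SE 0.59, adjusted p = 0.0282). HNRNPDL exon 1 had 19, 14 and 14 counts in MDH2 IP, 2, 3 and 5 in SMI and 0, 1 and 2 in IgG IP. Its value over IgG IP was 1.35 (log2 fold change 2.03, SE 0.47, adjusted p = 0.0166 over SMI).

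SRSF5 exon 5 had 19, 13 and 17 counts in MDH2 IP, 1, 4 and 6 in SMI and 15, 13 and 8 in IgG IP. This peak was above SMI (log2 fold change 1.97, SE 0.48, adjusted p = 0.0248) and far below IgG IP once depth was taken into account, at -2.16. HNRNPA0, a gene of 1 exon, had 20, 16 and 12 counts in MDH2 IP, 4, 4 and 3 in SMI and 2, 1 and 1 in IgG IP. MDH2 IP was higher than SMI in all libraries (log2 fold change 1.92, SE 0.45, adjusted p = 0.0217).

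Among the members' windows, the enriched ones were most frequent in first exons, as they were among exon windows of all genes with more than 1 exon. They made up 24 of 181 tested windows there (13.3%), 38 of 720 in internal exons (5.28%), 4 of 417 in last exons (0.959%), 1 of 95 in genes of 1 exon and 0 of 56 in introns. Of the 67 enriched windows, 30 reached 10 counts in no SMI library and were tested through MDH2 IP alone. The shares by position are therefore a description. Among all windows tested the share was 6.8% in first exons, 2.81% in internal exons, 2.04% in last exons and 13.4% in introns. The median log2 fold change over SMI was 0.81 in first exons, 0.24 in internal and -0.23 in last exons. Over IgG IP these medians were 0.07, 0.15 and 0.22. The share of exon counts in first exons showed the same, with 12.7%, 13.9% and 14.5% in MDH2 IP, 8.34%, 8.40% and 8.61% in SMI and 13.2%, 13.0% and 15.0% in IgG IP. MDH2 IP and IgG IP overlapped, and both were above SMI. Last exons held 39.5% to 42.5% in SMI, 30.5% to 32.1% in MDH2 IP and 32.3% to 34.3% in IgG IP. Other mRNAs had the same order, with first-exon shares from 7.46% to 8.04% in SMI, from 9.37% to 10.4% in MDH2 IP and from 10.0% to 10.9% in IgG IP. The smallest p of the exact permutation test, 0.1, applied to both shares of MDH2 IP against SMI.

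**Figure D5:**
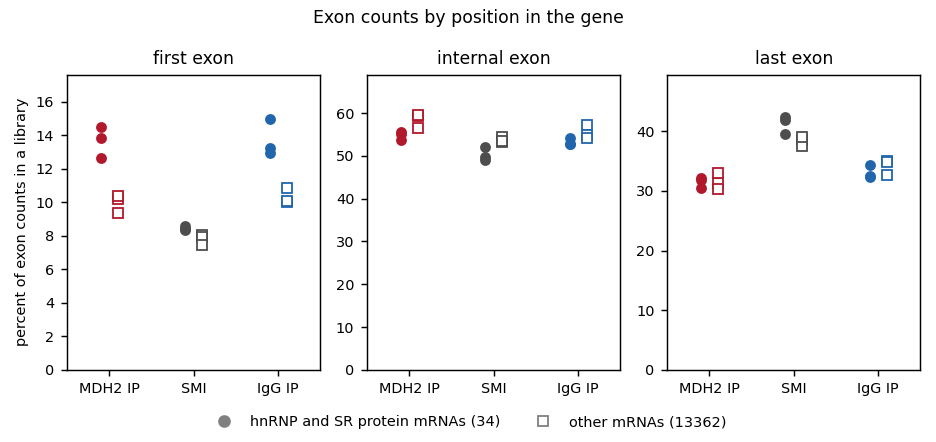
Percent of exon counts in first, internal and last exons in each library, for the 34 hnRNP and SR protein mRNAs with more than 1 exon (filled circles) and 13362 other mRNAs (open squares). Both IP groups lie above SMI in first exons and below SMI in last exons.

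Levels per exon length allow the members to be compared with each other. In SMI, PCBP1, an mRNA of 1 exon, was first at 72.0 CPM per kb, followed by HNRNPH1 at 41.6 and PCBP2 at 41.0, and SRSF8 was last at 1.18. PCBP1 exons held 124, 142 and 155 CPM in MDH2 IP, 121, 112 and 140.4 CPM in SMI and 123, 65.6 and 78.6 CPM in IgG IP. MDH2 IP and SMI differed by less than the spread (log2 fold change 0.16). HNRNPH1 exons held 541, 503 and 471 CPM in MDH2 IP, 404, 379 and 401 CPM in SMI and 389, 375 and 380.1 CPM in IgG IP. MDH2 IP was above both controls in all libraries, without passing the test over SMI (log2 fold change 0.35, SE 0.14, adjusted p = 0.0799). PCBP2 exons held 249, 248 and 249 CPM in MDH2 IP, 319, 359.6 and 296 CPM in SMI and 238, 242 and 216 CPM in IgG IP. SMI was the highest group without overlap, and MDH2 IP over SMI did not pass at -0.40. SRSF4, with the largest exon difference, stood at 3.36 CPM per kb in SMI.

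Other genes of splicing were taken as lists. Over all genes, 20.6% of exon sums were higher and 6.79% lower in MDH2 IP than in SMI, and 16.6% were higher over IgG IP. Of 18 tested core spliceosome genes, 11 had higher and 0 lower exon sums in MDH2 IP than in SMI, with a median of 0.58, and 8 were higher over IgG IP. Of 27 other splicing regulators, 9 were higher and 1 was lower, with a median of 0.30, and 13 of 26 were higher over IgG IP. Of 5 kinases that phosphorylate SR proteins, 1 was higher over SMI and 2 over IgG IP. The introns of the regulators were higher over SMI for 3 and lower for 13 of 28, and those of the core spliceosome genes were higher for 4 and lower for 4 of 18. Of all intron sums, 9.35% were higher and 30.7% lower.

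Some of these sums are open to shared reads or annotation. Reads with up to 10 alignments were kept, and processed pseudogenes of HNRNPA1 held counts equal to 2.58% of its exon counts, those of HNRNPA3 2.07%, those of HNRNPK 1.26% and those of HNRNPC 1.12%. Exon windows include transcripts with kept introns: the exons of SRSF4 cover 8806 nt in GENCODE v44 and 2300 nt in its protein-coding transcripts, and those of HNRNPL 6492 and 2445 nt. An annotated gene overlaps 14 of the 37 members on the same strand: HNRNPA1, HNRNPA3, HNRNPH2, HNRNPUL2, SYNCRIP, HNRNPK, PCBP2, HNRNPL, PTBP1, SRSF1, SRSF2, SRSF4, SRSF6 and SRSF9. SRSF8 had 0, 0 and 3 counts in IgG IP, too few for a fold.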

How the data were processed

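Per the labels and the methods of the study, the authors trimmed reads with cutadapt, aligned them with STAR to GRCh38 with up to 10 alignments kept, removed PCR duplicates by molecular identifiers, and deposited raw counts (htseq-clip), each the number of cross-link sites in a 50-nt window, with windows starting every 20 nt. Gene models with tRNA genes added were from an older GENCODE release than v44. The table holds 15767969 windows, and 0 columns were left unused. GENCODE v44 had a gene for 33751 of its 34950 Ensembl identifiers.

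Window counts were summed per gene over exons and over introns. Sums that reached 10 counts in 3 or more of the 6 libraries were tested two-sided with edgeR 4.0.16 in R 4.3.3 (TMM over exon and intron sums together, quasi-likelihood test, only the groups compared). Windows were tested one-sided, and each p was multiplied by how many tested windows overlapped. The main fits of MDH2 IP against SMI (sums, exon minus intron, and windows) were run on simulated data with libraries drawn independently. The other comparisons and settings were not simulated. Shares were compared by exact permutation tests, with 15 such tests made, whose adjusted p-values were all at least 0.125. MDH2 IP and SMI libraries of the same number deviated together (correlations 0.219, 0.613 and 0.621), so the numbers were taken to pair them. IgG IP libraries numbered 2 and 3 also deviated with those of MDH2 IP (correlations 0.3 and 0.386) and of SMI (0.328 and 0.388). IgG IP replicate 1 did not (-0.032 and -0.012). Alternatives were DESeq2 1.42.0, other scalings and filters, a fit of all 9 libraries, the block and leaving out each library.

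Members and lists were chosen with earlier results of these data known. Values in every library are given for the 8 called members with the largest exon and the 6 with the largest intron log2 fold change over SMI, up to 8 with enriched windows, up to 8 called over IgG IP, up to 6 called for the exon change minus the intron change, and the 3 with the most SMI exon CPM per kb. Members outside this rule were named after their values were seen.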

Additional observations from a re-analysis of the deposited data

How the results depend on the processing

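The 95 called values of members were each recomputed under the alternative settings, which gave 1470 recomputed values in all. Of these 1470, 1291 kept the direction and the call, 179 kept the direction without the call and 0 reversed. The number of calls moved more. Exons of MDH2 IP over SMI, 13 higher and 0 lower, became 20 higher with total counts, 6 higher and 3 lower with exon and intron sums normalized apart, 22 higher and 4 lower with the replicate block, and 1 lower with TMM computed without tRNA and mitochondrial features. Leaving out a library gave between 7 and 13 higher and 0 lower. Introns over SMI, 11 higher and 11 lower, became 6 lower when normalized apart. Leaving out a library gave between 6 and 11 higher and between 8 and 12 lower, and the block 12 each way. For MDH2 IP over IgG IP, 8 higher exons became 18 with DESeq2, 19 without a count filter, 22 with total counts, 14 with windows that do not overlap, 1 when normalized apart and 20 with the block, and between 4 and 12 with a library left out. The 0 lower exons became 2 in a fit of all 9 libraries, 2 when normalized apart, 1 with the block, and between 0 and 1 with a library left out. The 1 higher intron became 3 when normalized apart and between 0 and 1 with a library left out. The 6 lower introns became 13 in the fit of all 9 libraries, 0 when normalized apart, 10 with the block and between 3 and 7 with a library left out (3 without MDH2 IP replicate 1). For IgG IP over SMI, 3 higher exons became 6 with a minimum of 30 counts, 5 when normalized apart, 1 without a filter, 6 with the block and 6 with windows that do not overlap, and between 1 and 3 with a library left out. The 6 lower exons became 1 when normalized apart, 11 without a filter and 10 with the block, and between 1 and 6 with a library left out. The 13 higher introns ranged from 10 to 13 with a library left out. The 4 lower introns became 8 when normalized apart, 8 with total counts and 2 with windows that do not overlap, 6 with the block, and between 2 and 4 with a library left out. Exon minus intron, 13 higher and 6 lower, gave 17 and 8 with the block, and between 9 and 13 and between 3 and 5 with a library left out. The cause of these moves was not tested. Shares of all sums called were computed in the main fit only, so nothing particular to the members is read from these counts.

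The 67 enriched windows became 27 with DESeq2, 43 with a minimum of 30 counts, 137 without the multiplication for overlaps, 348 with total counts and 129 with the block. Of all windows tested, 4.07% were enriched in the main fit, and 2%, 12.9%, 7.61%, 19% and 7.44% in these settings. With a library left out this share was between 0.723% and 2.94%. Leaving out a library gave between 6 and 50, with 6 without MDH2 IP replicate 1, 14 and 24 without SMI replicates 1 and 2, 40 without SMI replicate 3 and 30 without MDH2 IP replicate 3. With an MDH2 IP library left out, 30 of the 67 could not be tested, so part of these falls is set by the filter. Library totals over all windows, an alternative chosen after seeing the data, gave 61. Windows without a count filter were not run. IgG IP libraries of the same number as MDH2 IP had correlations of -0.032, 0.3 and 0.386. For replicate 1 their block therefore rests on a shared number only, while replicates 2 and 3 deviated together. The block kept every call of an exon or intron sum that was made without it. IgG IP, with the fewest counts, sets the precision of every comparison with it: a missing call there does not show that values did not differ.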
